A study of Rattus norvegicus with 6 samples.

Results

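The 9 genes described here encode inhibitors, subunits and target products of the transcription factor NF-kB: Nfkbia, Tnfaip3, Nfkb1, Nfkb2, Relb, Birc3, Bcl2a1, Vcam1 and Icam1. They were chosen by name, as every probe set that the array's annotation assigns to a single one of these symbols or an older alias. Each gene had 1 probe set, so 9 of the 14217 genes named on the array are covered, and no second probe set was there to set beside the first. They were measured in rat 3Y1 cells, an embryonic fibroblast line, on 6 Affymetrix Rat Genome 230 2.0 arrays in 3 groups of 2 biological replicates. Vector culture is 3Y1 stably transfected with an empty vector, MUC1-CD culture is 3Y1 stably transfected with a construct that expresses the cytoplasmic tail domain of MUC1, a transmembrane mucin, and MUC1-CD tumors are the second line grown under the skin of the hindlimbs of female athymic mice. The age of the mice and whether tumors were pooled are not given, no further allele or agent is named for any group, no Vector tumor was analysed here, and the sources used here do not give whether each line is a clone or a pool. Athymic mice lack a thymus and so most T cells, but keep other leukocytes, vessels and muscle, whose RNA can enter a tumor sample.

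NF-kB dimers of the RELA, REL, RELB, NFKB1 and NFKB2 proteins are held in the cytoplasm by IkB proteins. Signals from TNF, interleukin 1 or Toll-like receptors activate the IKK kinases, IkB is degraded, and the dimers enter the nucleus and bind kappaB elements in DNA. Among the genes they switch on are their own inhibitors, such as the IkB alpha gene Nfkbia and the ubiquitin-editing enzyme gene Tnfaip3 (A20), which end the response. Others limit cell death (Birc3, Bcl2a1) or place leukocyte-binding proteins on the cell surface (Vcam1, Icam1).

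The sequence before the start of these genes is shown because kappaB elements there are the textbook link between the members. RefSeq promoters of the GRCr8 assembly, 250 bases before to 50 after 1 start site per gene, were listed for 7 of the 9 genes, all but Relb and Birc3. Each was searched on both strands for the classical 10-base kappaB consensus, spelled out as GGGANNCCCC, GGGANNCTCC, GGGANNTCCC, GGGANNTTCC, GGGGNNCCCC, GGGGNNCTCC, GGGGNNTCCC and GGGGNNTTCC. A match was found in 5 of the 7 promoters, beside 8.18% of 19005 protein-coding promoters of the same length. The genes were chosen by name as NF-kB genes, so this share is a description and no test. The lines below are for the 7 promoters except that of Icam1, which is not shown. They give the 200 bases before the start, or for Nfkb1 the stretch from 180 bases before to 20 after it. Each is read 5′ to 3′ on the strand of the gene with matches in capitals.
Nfkbia, chr6:78597073-78597272, minus strand: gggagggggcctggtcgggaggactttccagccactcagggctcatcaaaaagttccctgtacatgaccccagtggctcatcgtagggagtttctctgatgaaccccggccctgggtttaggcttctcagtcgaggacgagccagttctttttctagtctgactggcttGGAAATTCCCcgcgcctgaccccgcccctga
Tnfaip3, chr1:15543980-15544179, minus strand: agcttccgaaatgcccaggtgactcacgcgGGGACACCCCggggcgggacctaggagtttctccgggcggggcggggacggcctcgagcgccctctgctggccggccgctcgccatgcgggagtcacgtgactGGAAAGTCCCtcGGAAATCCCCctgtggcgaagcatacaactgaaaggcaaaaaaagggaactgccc
Nfkb1, chr2:226805443-226805642, minus strand: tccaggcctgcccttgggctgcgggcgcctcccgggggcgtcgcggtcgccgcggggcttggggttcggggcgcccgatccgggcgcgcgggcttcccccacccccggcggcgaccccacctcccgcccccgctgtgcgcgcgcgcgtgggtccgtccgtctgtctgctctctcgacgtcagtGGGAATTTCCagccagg
Nfkb2, chr1:255108174-255108373, plus strand: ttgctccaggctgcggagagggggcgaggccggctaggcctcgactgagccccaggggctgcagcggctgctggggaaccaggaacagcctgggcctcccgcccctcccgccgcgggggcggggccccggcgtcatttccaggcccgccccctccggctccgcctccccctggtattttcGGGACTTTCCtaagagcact
Vcam1, chr2:206742784-206742983, minus strand: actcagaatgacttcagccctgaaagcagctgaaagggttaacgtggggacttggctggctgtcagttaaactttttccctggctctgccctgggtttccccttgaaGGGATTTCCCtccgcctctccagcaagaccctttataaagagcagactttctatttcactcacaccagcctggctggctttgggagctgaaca
Bcl2a1, chr8:98596606-98596805, plus strand: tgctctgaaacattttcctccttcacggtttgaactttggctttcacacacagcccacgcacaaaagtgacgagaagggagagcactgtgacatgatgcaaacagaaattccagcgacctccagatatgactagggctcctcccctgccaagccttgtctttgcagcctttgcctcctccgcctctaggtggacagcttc
Tnfaip3 held 3 matching positions, 2 of them close together at -67 to -58 and -55 to -46 counted from the start site, and 1.34% of protein-coding promoters held 2 or more. Nfkbia had 1 match at -31 to -22, Nfkb2 at -20 to -11 and Vcam1 at -93 to -84, and in Nfkb1 the match lay at 4 to 13 after the start. Nfkbia and Nfkb1 carry the same 10 letters, GGGAATTTCC, on opposite strands, and GGGACTTTCC occurs in both Nfkb2 and Tnfaip3. Bcl2a1 and Icam1 had no match, which says only that these letters are not in this window. A match is a description of the letters and no measure of binding.

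Signals are given as deposited by the authors, on the linear MAS5 scale, array by array or as mean ± SD (n = 2). A change is a difference of group means of log2(signal + 16), given with its standard error (SE) from limma; at low signal this scale gives too small a change. A gene is called where its p, adjusted by Benjamini-Hochberg over 18625 probe sets, is under 0.05. All 9 members passed the filter on a mean signal of 61.6 over the 6 arrays, but Bcl2a1 did so only through the tumors, where it is high. Control probe sets of Gapdh gave a 3′ over 5′ ratio of 11.5 (Vector array 1) and 17.8 (Vector array 2), but 1.11 to 1.18 on the remaining arrays. Those of beta-actin gave 4.15 and 41.8 for Vector and 2.97 to 3.37 elsewhere. Replicate differences had an SD of 0.616 (log2) in Vector culture, 0.257 in MUC1-CD culture and 0.284 in tumors. Effects of the quality of the RNA cannot be told apart from those of the Vector line. All 10 markers of fibroblasts fixed for a check of the label passed the filter, with signals of 68.3 to 27322 over the 6 arrays. Such signals describe the samples and are no test of the label. In MUC1-CD culture against Vector culture 1 of the 10 was called higher and 7 lower, beside 25.0% and 20.7% of all probe sets. Between tumors and MUC1-CD culture 4 were higher and 1 lower, beside 8.54% and 7.31%.

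**Figure D1:**
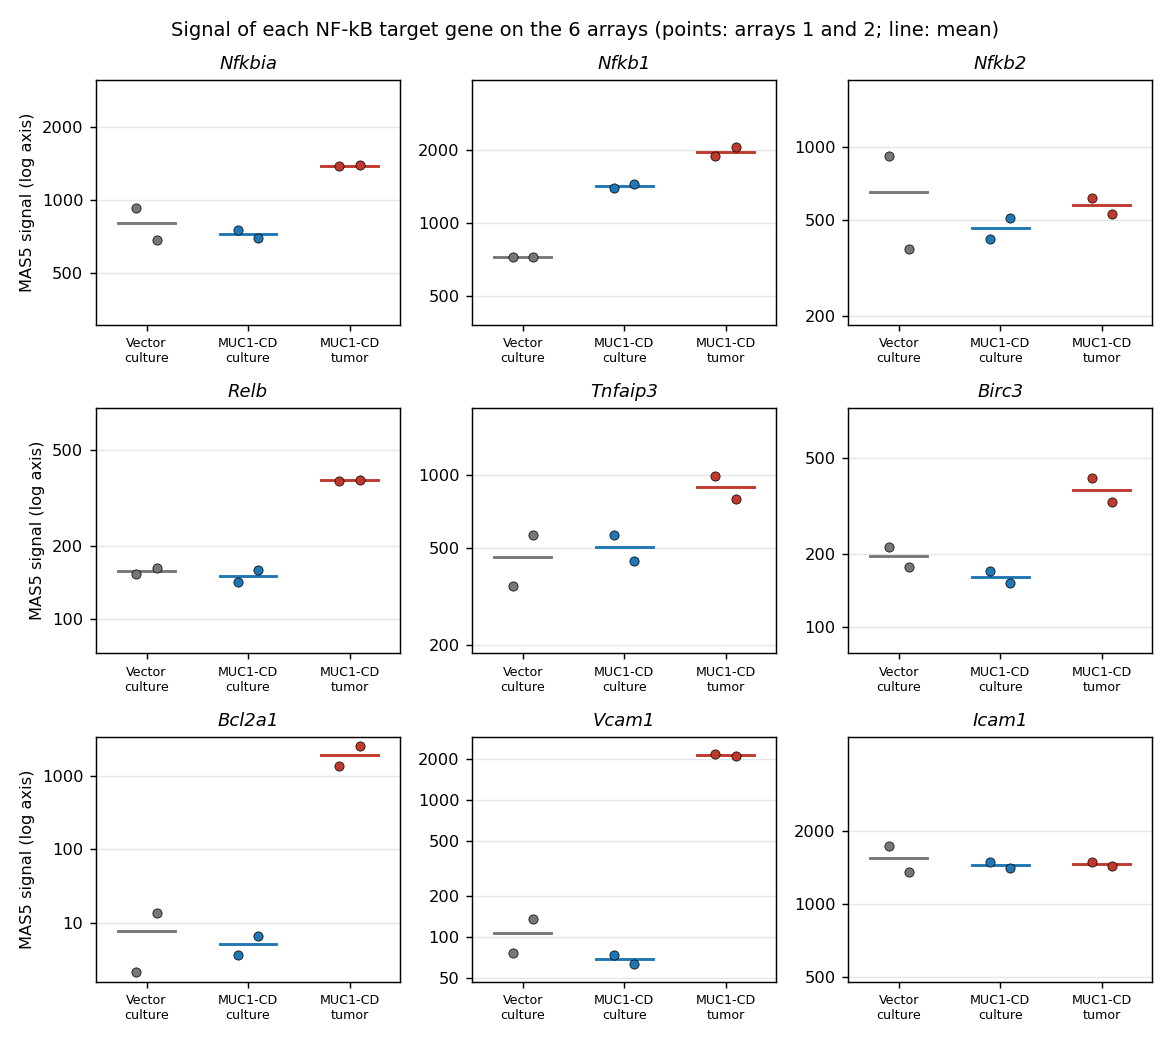
MAS5 signal (log axis) of each of the 9 genes on the 6 arrays, by group. Points are arrays 1 and 2 of a group and lines their mean. Nfkb1 is higher in MUC1-CD culture than in Vector culture, 7 other genes are higher on both tumor arrays than on both MUC1-CD culture arrays, and Icam1 overlaps in all groups.

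MUC1-CD culture was compared with Vector culture to find what goes with the domain outside an animal. In this comparison 1 of the 9 members rose, Nfkb1, and 0 fell; limma called 45.8% of all probe sets in this comparison, 25.0% higher and 20.7% lower. The median change of the 9 was -0.13, beside 0.07 over all probe sets. Nfkb1 encodes p105, the precursor of the p50 subunit and itself an inhibitor of NF-kB dimers. Its signal was 724 and 728 in Vector culture, 1395 and 1451 in MUC1-CD culture, and 1893 and 2054 in tumors. The 3 groups did not overlap and rank in that order. The rise in culture was 0.96 ± 0.12 (SE, log2; limma adjusted p = 0.00103), from 726 ± 2.83 to 1423 ± 40.2 (SD, n = 2).

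The inhibitor genes were not called in culture. Nfkbia, whose product IkB alpha holds NF-kB dimers in the cytoplasm, had a signal of 925 and 685 in Vector culture and of 753 and 697 in MUC1-CD culture. The MUC1-CD values lie between the Vector values. The change was -0.13, with a 95% interval of -0.54 to 0.27 (limma adjusted p = 0.553). Tnfaip3 had 350 and 566 in Vector culture and 566 and 443 in MUC1-CD culture, again overlapping, with a change of 0.16 and an interval of -0.45 to 0.78. The other subunit genes likewise were not called: Relb, whose product pairs with NFKB2 proteins in the noncanonical pathway, had 154 and 163 against 142 and 159 (-0.06, interval -0.47 to 0.34). Nfkb2, which encodes p100 and p52, had 916 and 380 in Vector culture, so that 1 array of that group was the highest and the other the lowest of the 6. Its change of -0.35 had an interval of -1.24 to 0.55.

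The survival and adhesion genes were low or level in culture. Bcl2a1, a BCL2 relative that blocks apoptosis in leukocytes, had signals of 2.10 and 13.3 in Vector culture and 3.60 and 6.50 in MUC1-CD culture. Birc3 (cIAP2), a ubiquitin ligase of TNF receptor complexes, had 214 and 177 against 171 and 152, so the MUC1-CD arrays were both lower, with a change of -0.25 that was not called (interval -0.73 to 0.22). Vcam1, the ligand of the integrin alpha4 beta1, had 76.3 and 136 against 73.8 and 63.3, a change of -0.49 (interval -1.09 to 0.12, adjusted p = 0.162). Birc3 and Vcam1 were the 2 members with both MUC1-CD culture arrays below both Vector arrays, beside 33.8% of all probe sets, and Nfkb1 the 1 member above, beside 39.3%. Icam1, the ligand of the leukocyte beta2 integrins, had 1732 and 1354 against 1493 and 1412, a change of -0.08 (interval -0.43 to 0.28). The intervals of the 8 members not called reach at most -1.24 and 0.78, and they do not show that these genes were alike in the 2 lines. Without Vector array 2, 5 members were called, Nfkb1 and Tnfaip3 (0.50) higher and Nfkb2 (-0.97), Nfkbia (-0.35) and Icam1 (-0.25) lower, beside 59.0% of all probe sets called in that fit. Without Vector array 1, where 61.8% of all probe sets were called, there were 2 members, Nfkb1 higher and Vcam1 lower (-0.85), and the changes of Nfkb2 (0.27) and Nfkbia (0.08) turned positive.

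**Figure D2:**
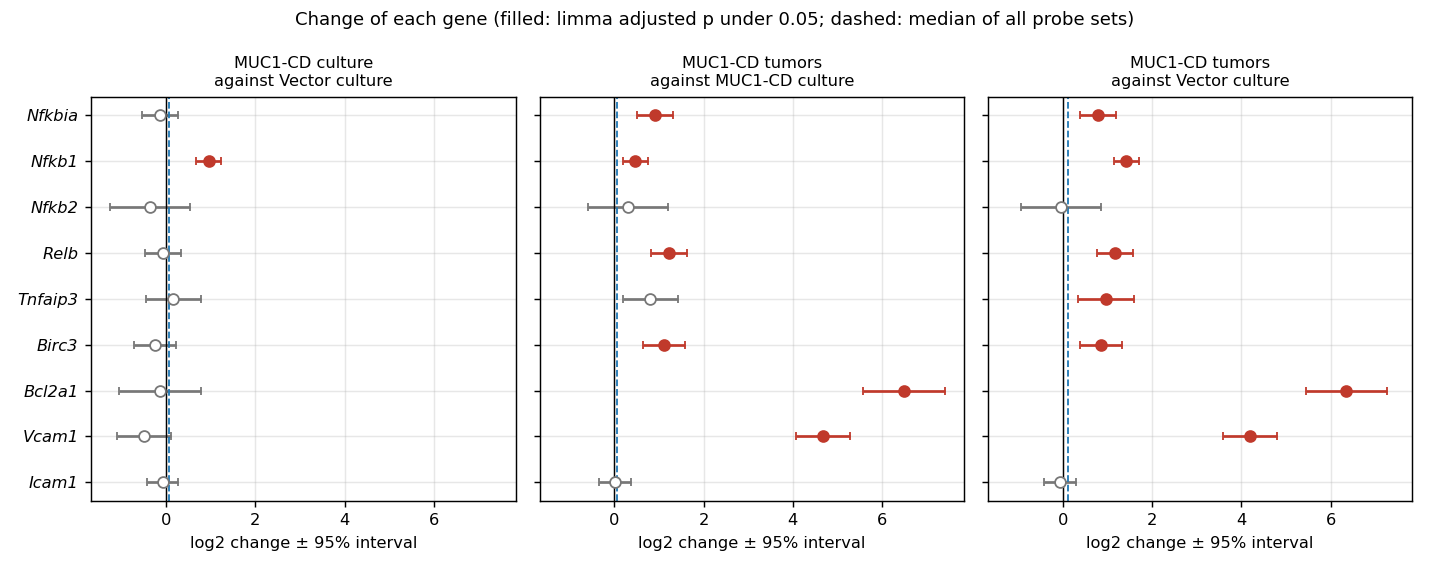
Change (log2, with 95% interval) of the 9 genes in the 3 comparisons. Filled points have a limma adjusted p under 0.05, and the dashed line is the median of all probe sets. Nfkb1 alone is filled in the first panel, and Bcl2a1 (6.49) and Vcam1 (4.67) lie far to the right in the tumor comparisons.

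Tumors were compared with MUC1-CD culture, the same line, to find what goes with growth in the animal. Of the 9 members, 6 rose and 0 fell: Bcl2a1, Vcam1, Relb, Birc3, Nfkbia and Nfkb1. Bcl2a1 passed the filter only through the tumors, so its place in this count is a description only. Among all probe sets limma called 15.8%, 8.54% higher and 7.31% lower. On both tumor arrays 8 of the 9 were above both culture arrays and 0 below, as were 40% and 32.5% of all probe sets. The median change of the 9 was 0.92, beside 0.05 over all probe sets. Per the labels, tumors were frozen, soaked in a preservative, homogenized and purified over spin columns and with TRIzol, while for cultured cells TRIzol alone is named, so the way RNA was prepared cannot be told apart from growth in the animal.

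Bcl2a1 and Vcam1 had changes far above those of the other members. Bcl2a1 had a signal of 1371 and 2544 in tumors, against 3.60 and 6.50 in MUC1-CD culture. All 4 culture arrays lie at 13.3 or below, so the size of the fold rests on signals near 0. The change was 6.49 ± 0.38 (SE; limma adjusted p = 0.00024), and 4.81 or 8.31 with 64 or 1 added in place of 16. Vcam1 had 2163 and 2112 in tumors against 73.8 and 63.3 in culture, a change of 4.67 ± 0.25 (adjusted p = 0.000191). Its 2 tumor arrays differ by far less than the gap between groups. These 2 genes were called in every alternative. Bcl2a1, however, was kept only because it is high in tumors, so its calls are a description only.

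The feedback genes had smaller changes. Nfkbia had 1372 and 1391 in tumors against 753 and 697 in culture, which is 1.91 times the culture mean and a change of 0.92 ± 0.17 (adjusted p = 0.0152). Tnfaip3 had 993 and 795 against 566 and 443. The groups do not overlap, but its change of 0.81 ± 0.26 was not called (interval 0.19 to 1.43, adjusted p = 0.0837). It was called, at the same size, when the Vector arrays were left out of the fit (adjusted p = 0.00109), which also raised the share of all probe sets called to 43.2%.

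Of the subunit genes, Relb moved most. It had 372 and 376 in tumors against 142 and 159 in culture, 2.48 times the culture mean, with a change of 1.23 ± 0.17 (limma adjusted p = 0.00534). Nfkb1 rose again, by 0.47 ± 0.12 (adjusted p = 0.0422). This call was lost with the replicate number of the labels as a block (adjusted p = 0.0742). Nfkb2 had 616 and 530 against 417 and 510, so both tumor arrays were higher, with a change of 0.30 that was not called (interval -0.60 to 1.19).

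Birc3 had 410 and 327 in tumors against 171 and 152 in culture, a change of 1.11 ± 0.20 (limma adjusted p = 0.0137). Icam1 had 1496 and 1437 in tumors against 1493 and 1412 in culture. The 2 groups overlap, and the change of 0.01 had an interval of -0.34 to 0.37. Icam1 and Vcam1 thus had intervals that do not meet (Vcam1 4.07 to 5.28). Division of each array by its median turned the Icam1 change to -0.25, still not called, and ended the Nfkb1 call (0.20, adjusted p = 0.332). Where any 1 tumor or MUC1-CD culture array was left out, Bcl2a1 and Vcam1 were the members still called, 2 of 9. Then the lone array of the group is assumed to vary like the others, and the share of probe sets called fell to between 3.26% and 3.60%.

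Tumors against Vector culture share arrays with both comparisons above. Of the 9 members 7 were called higher, all but Nfkb2 and Icam1, and 0 lower. Bcl2a1 is counted here too, as a description, since it was kept only through the tumors. Among all probe sets limma called 51.5%, 29.1% higher and 22.4% lower. The same 7 were above both Vector arrays on both tumor arrays and 0 below, beside 42.2% and 33.2% of all probe sets. The changes were 6.35 for Bcl2a1, 4.19 for Vcam1, 1.42 for Nfkb1, 1.16 for Relb, 0.97 for Tnfaip3, 0.86 for Birc3 and 0.78 for Nfkbia (limma adjusted p = 5.68e-05 to 0.0195). After division of each array by its median, 4 were higher (Bcl2a1, Vcam1, Nfkb1 and Relb) and Icam1 was lower (-0.65, adjusted p = 0.00874), beside 60.9% of all probe sets called. Without tumor array 1 there were 4 calls, since Nfkbia, Tnfaip3 and Birc3 were lost, and without tumor array 2 there were 5, since Nfkbia and Tnfaip3 were lost; in these fits 32.0% and 32.7% of all probe sets were called. Without Vector array 1, 8 were called, Nfkb2 among them at 0.57; without Vector array 2, 7 were higher and Nfkb2 was lower (-0.67). Those 2 fits called 66.6% and 63.0% of all probe sets.

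Bcl2a1 and Vcam1 are also expressed by cells of the host, Bcl2a1 by leukocytes and Vcam1 by activated endothelium and macrophages. In these bulk samples more cells of a type and more RNA per cell cannot be told apart. Of 16 macrophage markers, 11 passed the filter, 6 of them (Cd68, Aif1, C1qa, C1qb, C1qc and Coro1a) only through the tumors. In tumors against MUC1-CD culture 7 rose and 1 fell (Laptm5), with a median change of 2.42, beside 8.54% and 7.31% of all probe sets. Those 6 were kept because they are high in tumors, so this count and median only describe the list. Of those kept on culture signal, Lyz2 was 173 and 137 in tumors, 58.1 and 59.0 in MUC1-CD culture and 268 and 377 in Vector culture. Cd163 was 102 and 122 in tumors and 115 and 145 in MUC1-CD culture, and Fcer1g 104 and 95.3 against 85.6 and 52.8. The summed signal of the 16 was 7242 and 7145 in tumors, 3484 and 3712 in MUC1-CD culture, and 1218 and 1310 in Vector culture. Cd14, a receptor for bacterial lipopolysaccharide, made up 3248 and 3289 of it in tumors and 2828 and 3052 in MUC1-CD culture. In Vector culture Cd14 had 594 and 464. It was not called in tumors against MUC1-CD culture. Coro1a, an actin regulator of leukocytes, had 912 and 1105 in tumors and at most 15.0 on any culture array. Aif1, of macrophages, had 639 and 604 in tumors, with 0.8 and 0.4 in MUC1-CD culture. Ptprc, of all leukocytes, was not tested, with 65.3 and 63.1 in tumors and 3.2 to 23.0 on the culture arrays. Adgre1, of macrophages, was not tested either, with 15.7 and 16 in tumors and 1.00 to 14.0 in culture.

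Of 12 endothelial markers with a probe set, 5 passed the filter, 3 of them (Flt1, Tek and Aqp1) only through the tumors. In tumors against MUC1-CD culture 4 rose and 0 fell, with a median of 1.48, beside 8.54% and 7.31% of all probe sets. Those 3 were kept because they are high in tumors, so this count and median only describe the list. Egfl7, kept on its culture signal, had 148 and 205 in tumors, below its 226 to 322 on the culture arrays. The summed signal of the 12 was 3146 and 3082 in tumors and 554 to 607 on the culture arrays. The water channel gene Aqp1 alone gave 1763 and 1550 of the tumor sums, against 10.1 to 33.3 in culture. Flt1, a VEGF receptor, had 382 and 434 in tumors and 58.5 and 58.8 in MUC1-CD culture. Tie1, Emcn, Cldn5 and Icam2 were not tested, but their tumor signals of 79.9 to 142 lay above all 4 culture arrays, which reached at most 44.0. Pecam1 was 17.8 and 27.5, Kdr 6.90 and 11.3, and Vwf 9.70 and 10.2 in tumors, within or below their range in culture. Of the lists of lymphoid cells and granulocytes, erythroid cells, pericytes and adipocytes, 10, 4, 6 and 4 genes had a probe set and 1, 2, 2 and 0 were tested. S100a9 (3.58) and Hbb (6.83), both tested only through the tumors, were called higher in tumors against MUC1-CD culture, a description only. There 0 pericyte genes were called. Genes not tested went both ways. Alas2 had 125.3 and 97.5 in tumors against at most 42.5 in culture, but Ahsp had 10.2 and 5.9 against 7.9 to 48.2. S100a8 had 51.0 and 68.9 against 1.0 to 116.8. Kcnj8 had 131.5 and 106.4 against 2.9 to 43.4, but Abcc9 had 5.6 and 8.7 against 13.5 to 100.9. T-cell Cd3e was 95.1 and 80.8 in tumors and 27.3 to 55.5 in culture. Of 12 skeletal muscle genes, 9 were tested, 6 of them only through the tumors. These 9 rose in tumors against MUC1-CD culture, beside 8.54% of all probe sets. Against Vector culture 8 were higher and 1 lower, beside 29.1% and 22.4%. As 6 were kept because they are high in tumors, these counts only describe the list. Their list of 12 summed to 14383 and 13359 in tumors, 3087.5 and 3023.9 in MUC1-CD culture and 10199 and 10750 in Vector culture. Myh1 alone gave 4122 and 3929 in tumors, 2806 and 2626 in MUC1-CD culture and 9779 and 10297 in Vector culture. The part of host cells in the changes of the 9 members was not tested, nor was whether rat probe sets detect mouse transcripts.

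**Figure D3:**
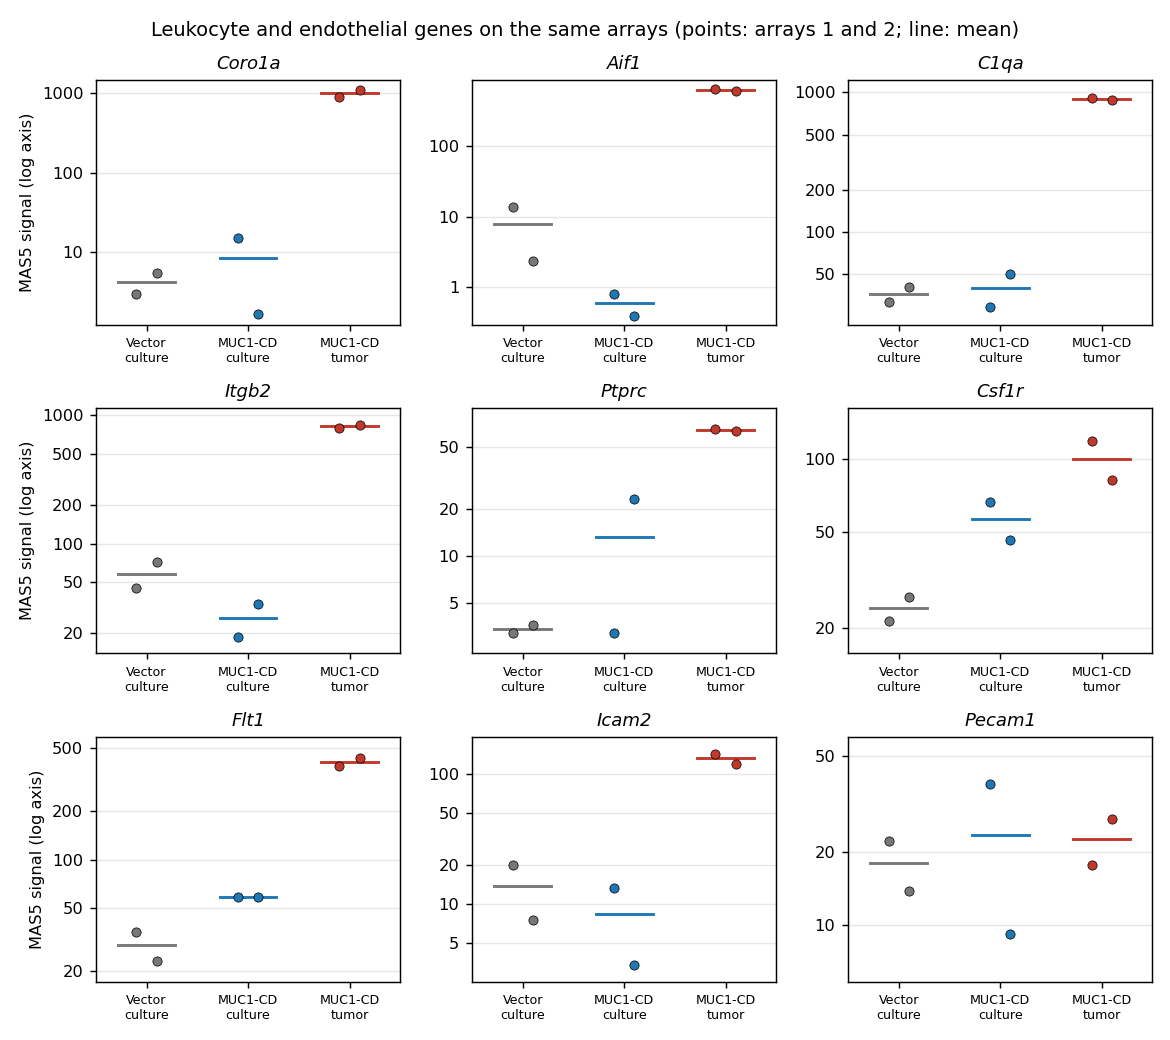
MAS5 signal (log axis) of 6 leukocyte genes (Coro1a, Aif1, C1qa, Itgb2, Ptprc, Csf1r) and 3 endothelial genes (Flt1, Icam2, Pecam1) on the same 6 arrays. Points are arrays and lines group means. The genes were chosen after their values were seen, and Coro1a, Aif1, C1qa, Itgb2 and Flt1 passed the filter only through the tumors. Laptm5, which was lower in tumors than in MUC1-CD culture, and Cd14, Cd163 and Lyz2 are not shown. Coro1a and Aif1 reach 604 to 1105 in tumors, while Pecam1 stays at or below 38.1 on every array.

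The rest of the pathway was read from lists of other NF-kB genes. The counts below stand beside 25.0% of all probe sets higher and 20.7% lower in MUC1-CD culture against Vector culture, and 8.54% and 7.31% in tumors against MUC1-CD culture; they describe the lists, and none was tested against those shares. Of 5 other subunit and IkB genes tested, 1 was higher in MUC1-CD culture than in Vector culture and 0 lower. It was Nfkbiz, the nuclear protein IkB zeta, which had 261 and 323 in Vector culture and 648 and 587 in MUC1-CD culture (1.05 ± 0.17, limma adjusted p = 0.00271). Between tumors and MUC1-CD culture it was Nfkbib, IkB beta, that rose (0.83 ± 0.17, adjusted p = 0.0225), again 1 of 5; the call was lost after division of each array by its median (0.57, adjusted p = 0.0656). Rela, the main activating subunit, had 1524 to 2115 over the 6 arrays, and the groups overlap.

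Of 18 genes tested in the IKK complex and the signal relay above it, 2 were higher and 5 lower in MUC1-CD culture. Chuk, the kinase IKK alpha, rose by 0.80 ± 0.12, while Tab1 (-2.08), Map3k14, the kinase NIK of the noncanonical pathway (-1.14), and Tbk1 (-1.02) fell (limma adjusted p = 0.000288 to 0.00791). Tab1 had 980 and 799 in Vector culture and 218 and 178 in MUC1-CD culture. In tumors against MUC1-CD culture 1 of the 18 rose, Tab1 (0.82), and 1 fell, Irak1 (-0.46). The Tab1 call was lost after division by the median (adjusted p = 0.0827), and that of Irak1 with the replicate block (0.0579) and without the variance trend (0.091). Among 6 tested ubiquitin editors and other inhibitors, Tnip2, a partner of A20, fell in MUC1-CD culture (-0.59, adjusted p = 0.027), a call lost with only the 2 groups in the fit (0.0609) and with array weights (0.0818). In tumors against MUC1-CD culture 0 were called. Tnip1, another partner of A20, had the smallest p there (0.36, adjusted p = 0.0734).

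Of 8 receptors tested, 3 rose in MUC1-CD culture and 0 fell. The interleukin 1 receptor gene Il1r1 had 814 and 849 in Vector culture and 2381 and 2138 in MUC1-CD culture, and its partner Il1rap rose by 1.49 ± 0.16 (limma adjusted p = 0.000544). Tnfrsf12a rose by 0.76 ± 0.19 (adjusted p = 0.0167), a call lost after division of each array by its median (0.44, adjusted p = 0.0985). Between tumors and MUC1-CD culture 1 receptor rose, Tlr2, from 37.7 and 26.3 to 296 and 284 (2.68 ± 0.48, adjusted p = 0.0138); it passed the filter only through the tumors, and its call was lost with 1 added in place of 16 (adjusted p = 0.0738). Of the ligands, 3 of 10 passed the filter. Il33 had 181 and 190 in Vector culture, 589 and 584 in MUC1-CD culture and 1217 and 1187 in tumors, which is the same order of groups as for Nfkb1. Il18 fell from 114 and 126 to 43.5 and 48.4 in MUC1-CD culture and stood at 595 and 525 in tumors. Tnf was not tested, with 34.1 and 65.5 in tumors and 2.10 to 3.80 on the culture arrays.

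Of 10 other survival genes tested, 3 rose and 1 fell in MUC1-CD culture. Cflar, the caspase 8 inhibitor FLIP, had 18.6 and 62.0 in Vector culture and 203 and 174 in MUC1-CD culture (1.97 ± 0.38, limma adjusted p = 0.00628), and Traf1, of TNF receptor complexes, rose by 2.28 ± 0.48. Ier3 also rose in MUC1-CD culture (1.36 ± 0.36). Sod2, the mitochondrial superoxide dismutase, fell by 0.99 (SE 0.12) in MUC1-CD culture and rose by 0.96 ± 0.12 in tumors against it. In that tumor comparison 2 rose, Sod2 and Bcl2l2 (0.96 ± 0.15), and 1 fell, Mcl1 (-0.46 ± 0.12, limma adjusted p = 0.0427). Mcl1 had 5850 to 9046 over the 6 arrays. Its call was lost without the filter (adjusted p = 0.0735) and without the variance trend (0.118). Birc2, the close relative of Birc3, had 1076 and 560 in Vector culture, 777 and 713 in MUC1-CD culture and 1175 and 991 in tumors, and was not called in tumors against MUC1-CD culture. Of 6 pro-apoptotic BCL2 genes tested, Bid rose in MUC1-CD culture (0.63 ± 0.12), and Bok (0.72 ± 0.14) and Bid (0.52 ± 0.12) rose in tumors against it. After division by the median these calls were lost (Bid 0.31 and 0.25, Bok 0.45), and that of Bid in tumors also with the replicate block (adjusted p = 0.0564) and without the variance trend (0.0713).

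Of 12 inflammatory targets tested, 3 rose and 3 fell in MUC1-CD culture, which is near the share of all probe sets. The cyclooxygenase gene Ptgs2 went from 893 and 1219 to 9741 and 10307, and the chemokine gene Ccl2 rose by 1.79 ± 0.14, while the chemokine genes Cxcl10 (-1.10) and Ccl5 (-1.16) fell (limma adjusted p = 3.6e-05 to 0.0059). Of the same targets, in tumors against MUC1-CD culture 4 rose and 1 fell, but 3 of the 12, Csf2, Mmp9 and C3, passed the filter only through the tumors. Ptgs2 fell by 1.55 (SE 0.15), and the complement gene C3 (2.61), Ccl5 (1.63) and the transcription factor gene Irf1 (0.96) rose (adjusted p = 0.00141 to 0.00504). Of the integrins that bind ICAM1 and VCAM1, 4 of 7 were tested, Itgb2 and Itgb7 only through the tumors. Itgb2, the beta chain of the leukocyte integrins, had 805 and 843 in tumors against 18.9 and 34.1 in MUC1-CD culture, and Itgax also rose (1.43 ± 0.19). Itgb1, the beta chain of the VCAM1 receptor, had 8745 to 9938 over all 6 arrays. Of the pathway genes named here as called in tumors against MUC1-CD culture, Il18, Ptgs2 and Itgb2 kept their calls whichever single array was left out, and each of the others lost its call without at least 1 tumor or MUC1-CD culture array. Among those named as called in MUC1-CD against Vector culture, Cflar and Ccl5 lost their calls without MUC1-CD culture array 1 and Map3k14 without array 2. Traf1, Ier3, Tnfrsf12a, Bid and Tnip2 lost theirs without either.

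**Figure D4:**
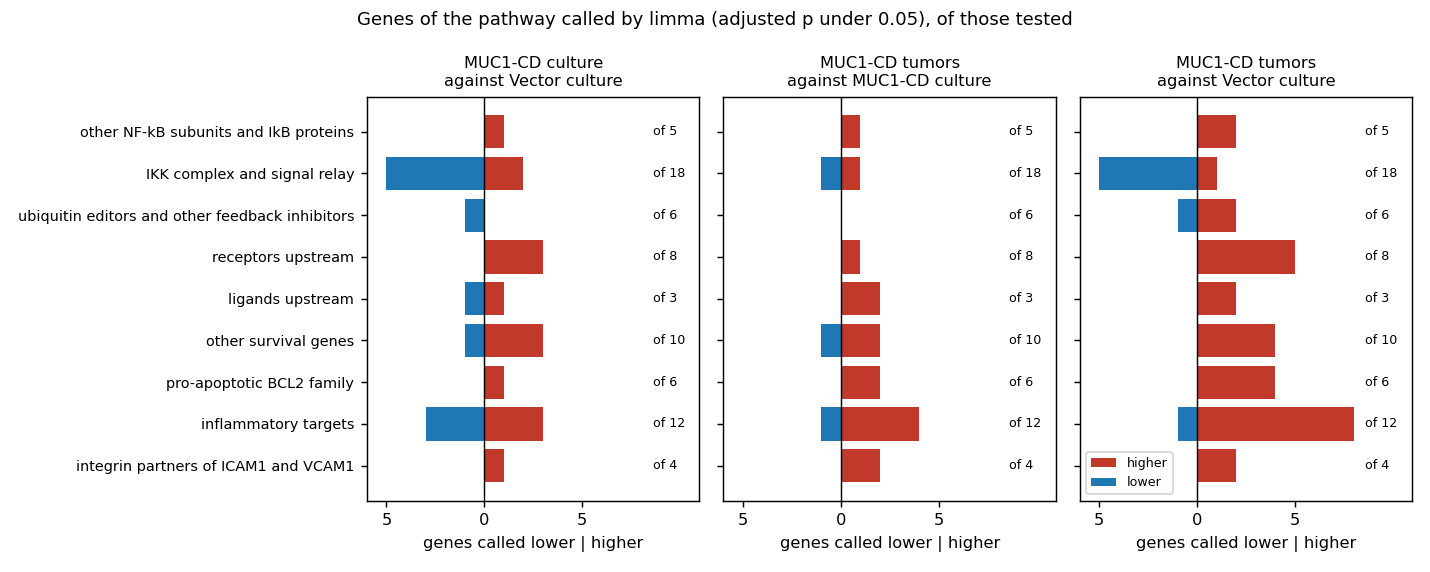
Number of genes of each other NF-kB pathway list called lower (left) or higher (right) by limma in the 3 comparisons, with the number tested. In tumors against MUC1-CD culture 4 of 12 inflammatory targets are higher and 1 is lower, and of 18 relay genes 1 is higher and 1 lower; 3 of those 12 targets passed the filter only through the tumors.

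Tumors against Vector culture gave 5 of 8 receptors, 8 of 12 inflammatory targets, 4 of 10 survival genes and 4 of 6 pro-apoptotic genes higher, and 1 inflammatory target, Cxcl10, lower, beside the 29.1% and 22.4% above. Of the relay genes 1 was higher and 5 lower, of the other subunit and IkB genes 2 higher, of the inhibitors 2 higher and 1 lower, and of the ligands and the integrins 2 each higher. Kept only through the tumors were Tlr2, the inflammatory targets Csf2, Mmp9 and C3, the integrins Itgb2 and Itgb7, and the IkB gene Bcl3. The counts of lists that hold these genes are a description only. Among the receptors Il1r1 (1.36), Il1rap (1.63), Tlr2 (3.19) and Tnfrsf1a (0.93), which binds TNF, were higher (limma adjusted p = 0.000223 to 0.00645). The calls of Tnfrsf1a and of all pro-apoptotic genes but Bid were lost after division of each array by its median. So were those of Chuk among the relay genes, Nfkbib among the IkB genes, and Tnip1 and Zc3h12a among the inhibitors. The survival genes Bcl2l2 and Ier3 lost theirs too (limma adjusted p = 0.0614 to 0.605 from Chuk to Ier3).

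The genes with the profiles nearest to those of the 9, by Euclidean distance between centred log2 profiles over the 6 arrays among 10028 other genes, are given as a description. For Bcl2a1 they were Col6a2 (distance 0.79), a collagen VI chain, and Hbb (0.93), a hemoglobin chain. For Vcam1 they were Gbp7 (0.41), an interferon-induced GTPase, and Stfa3 (0.52). For Nfkb1 they were Zmym5 (0.11) and Pdap1 (0.16), for Nfkbia Xxylt1 (0.17) and Crebrf (0.19), for Relb Lsp1 (0.17) and Fem1b (0.18), and for Birc3 C3h11orf96 (0.25) and Eef1a2 (0.27). Nfkb2 lay nearest to Cyld (0.23), a deubiquitinase that ends NF-kB signals, and Dhrs11 (0.29). Tnfaip3 lay nearest to Dkk3 (0.21) and the muscle regulator gene Myog (0.25), and Icam1 to Cish (0.08) and Trip4 (0.11).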

How the data were processed

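Signals were read from 6 arrays, which the labels place in 3 groups of 2 biological replicates. Whether these were separate cultures or animals is not given beyond that. For each probe set the p-values rest on a replicate spread pooled over the 3 groups. That spread was not alike, with an SD of replicate differences of 0.616 in Vector culture, 0.257 in MUC1-CD culture and 0.284 in tumors. The deposited values are MAS5 signals (a linear intensity of each probe set), as the submitters' processing notes name that method; no version or filter is recorded there. Every deposited array had a 2% trimmed mean of 500.2, left as it was. Of 31042 probe sets other than 57 controls, 18625 had a mean signal of at least the 40th percentile and were kept, and 1 limma model (version 3.58.1, R 4.3.3) with group as its only term was fitted to log2(signal + 16) of all 6 arrays, with a mean-variance trend, 3 residual degrees of freedom and 3.70 prior ones (median). Tests were 2-sided, with a threshold of 0.05 after adjustment over the kept probe sets. The platform annotation listed 21262 probe sets: 20826 named 1 gene, 436 several and 9780 were not listed. Symbols were updated through Entrez identifiers to GRCr8 (20758 matched). Where a gene had several kept probe sets, the one brightest on average was read. Named genes are the 9 members, of each pathway list up to 4 called genes with the smallest p per comparison (or the smallest p alone), and the 2 nearest profiles. Tnf, Rela, Birc2, Itgb1 and the single markers were chosen after their values were seen. The members and lists were chosen with earlier results of these data known. The code was tested on simulated data. Replicate numbers did not pair the arrays. Alternatives changed the pseudocount, filter, scaling, variance model, weights, block or arrays. The number of arrays limits precision.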

Additional observations from a re-analysis of the deposited data

How the results depend on the processing

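Of 27 changes of the 9 genes (3 comparisons), 14 were called; 7 of these were called in all 16 alternatives, 0 of the 14 reversed in any, and the cause of each change below was not tested. The 7 are Bcl2a1 and Vcam1 in both tumor comparisons, Nfkb1 in both comparisons with Vector, and Relb in tumors against Vector. As Bcl2a1 passed the filter only through the tumors, its calls are a description only. When arrays were scaled to equal medians, the middle change over all probe sets went from 0.07 to -0.24 in MUC1-CD against Vector culture, from 0.05 to -0.21 in tumors against MUC1-CD culture and from 0.12 to -0.45 in tumors against Vector, and the share of called probe sets that were higher from 54.7% to 33.7%, 53.9% to 22.9% and 56.5% to 25.7%. With it 2 members were called in culture (1 lower, Vcam1), and in tumors against Vector 4 were higher and 1 lower; Tnfaip3 in culture became -0.15, Icam1 in tumors against MUC1-CD culture -0.25, and Bbc3 in tumors against Vector -0.10. With quantile normalization Icam1 in tumors against Vector was 0.0011. Without a filter the share of probe sets called was 26.1% in culture, 8.62% in tumors against MUC1-CD culture and 32.0% in tumors against Vector. In tumors against MUC1-CD culture it was 43.2% with only the 2 groups compared and 41.9% with array weights by group, with 7 members called in each.

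Leaving out 1 array gave 1 to 5 members called in culture (1 to 2 higher, 0 to 3 lower), 2 to 7 called, all higher, in tumors against MUC1-CD culture, and 4 to 8 called (4 to 8 higher, 0 to 1 lower) in tumors against Vector. The share of probe sets called ranged over 23.7% to 61.8%, 3.26% to 43.2% and 32.0% to 66.6%. Changes that turned sign were not called in the full data: in culture Nfkbia ranged from -0.35 to 0.079, Nfkb2 from -0.97 to 0.27, Relb from -0.14 to 0.0091, Tnfaip3 from -0.17 to 0.50, Bcl2a1 from -0.48 to 0.21 and Icam1 from -0.25 to 0.10. In tumors against MUC1-CD culture Icam1 ranged from -0.026 to 0.054, and in tumors against Vector Nfkb2 from -0.67 to 0.57 and Icam1 from -0.24 to 0.11.

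With the replicate number as a block, 5 members were called in tumors against MUC1-CD culture, 1 in culture and 7 in tumors against Vector, beside 12.8%, 43.7% and 49.4% of all probe sets. Same-numbered arrays did not deviate together (correlations of replicate differences -0.04, -0.02 and -0.03), so the arrays share only a number. Each member has 1 probe set, so the choice of probe set changes none of them. Medians of the pathway lists moved with scaling, and those of the relay genes, for example, ranged from -0.17 to 0.12 in tumors against MUC1-CD culture. No detection calls were used, so signals near 0, as for Bcl2a1 in culture, are levels without a limit of detection.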
